A study of Homo sapiens with 12 samples.

Results

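The genes described here are 10 genes whose 2 DNA marks moved in opposite directions when human HL-60 leukemia cells were differentiated: STC1, ATMIN, FAS, SRFBP1, CYP4X1, TMEM17, ZNF25, GFM2, FBXO30 and AMPD1. They are 10 of 20712 genes that hold a listed region of either mark. The members were selected on the measured 5-methylcytosine (5mC) and 5-hydroxymethylcytosine (5hmC) differences between the same libraries, so those differences are given as a description and without a test. A region was assigned to a gene when it lay inside the gene or at most 5 kb upstream of its start by the deposited distances. This gave 16 of 327931 5hmC regions and 11 of 65535 listed 5mC regions.

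HL-60, an established line of human promyelocytic leukemia, can be driven along the neutrophil lineage with dimethyl sulfoxide (DMSO). Undifferentiated cells were sorted as viable and negative for CD11b, a surface integrin chain of mature myeloid cells. Differentiated cells were exposed to 1.5% DMSO (211 mM) over 7 days and were sorted as viable and positive for CD11b. Each state had 3 biological replicates, and the sheared DNA of each was divided between capture with a 5mC antibody and capture with a 5hmC antibody, giving 12 libraries. All cells carry the genome of 1 line, and the states are sorted fractions of its cultures. RNA was not analysed here, so the cell type could not be checked against the expression of its markers.

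5mC is written onto cytosine, mostly at CpG dinucleotides, by DNA methyltransferases. TET enzymes oxidise 5mC to 5hmC, which makes 5hmC a product of 5mC and an intermediate of its removal. Both marks are also found inside genes, and 5mC is usually sparse at CpG-rich gene starts. Antibody capture gives the amount of DNA pulled down at a region, which also depends on CpG density and on DNA copy number, and it does not give a percentage of modified cytosines. In a mixed population, a change in the share of cells that carry a mark cannot be told apart from a change in each cell.

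Of the 10 members, 9 (all but FAS) had less captured 5hmC and more captured 5mC in differentiated than in undifferentiated cells, and FAS had the reverse. The opposite directions lay in different regions. None of the 11 5mC regions of these genes shared a base with any 5hmC region, their own or another gene's. None of their 16 5hmC regions shared a base with a listed 5mC region. Over the whole tables, 67.8% of the listed 5mC regions overlapped a 5hmC region, and only 14.3% of the 5hmC regions overlapped a listed 5mC region. The closest 5mC and 5hmC regions of a gene were separated by 800 bases in ZNF25, 1400 in TMEM17, 2200 in STC1, 3400 in ATMIN, 3800 in CYP4X1, 4800 in AMPD1, 5800 in SRFBP1, 9400 in FAS, 14800 in FBXO30 and 36400 in GFM2. The median of these gaps was 4300 bases. The deposited 5mC table holds only regions with small p-values for the difference between the states. 5mC at the 5hmC sites of these genes was therefore not analysed here. The 5hmC table listed no region at their 5mC sites, so 5hmC there was not analysed here either.

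**Figure D1:**
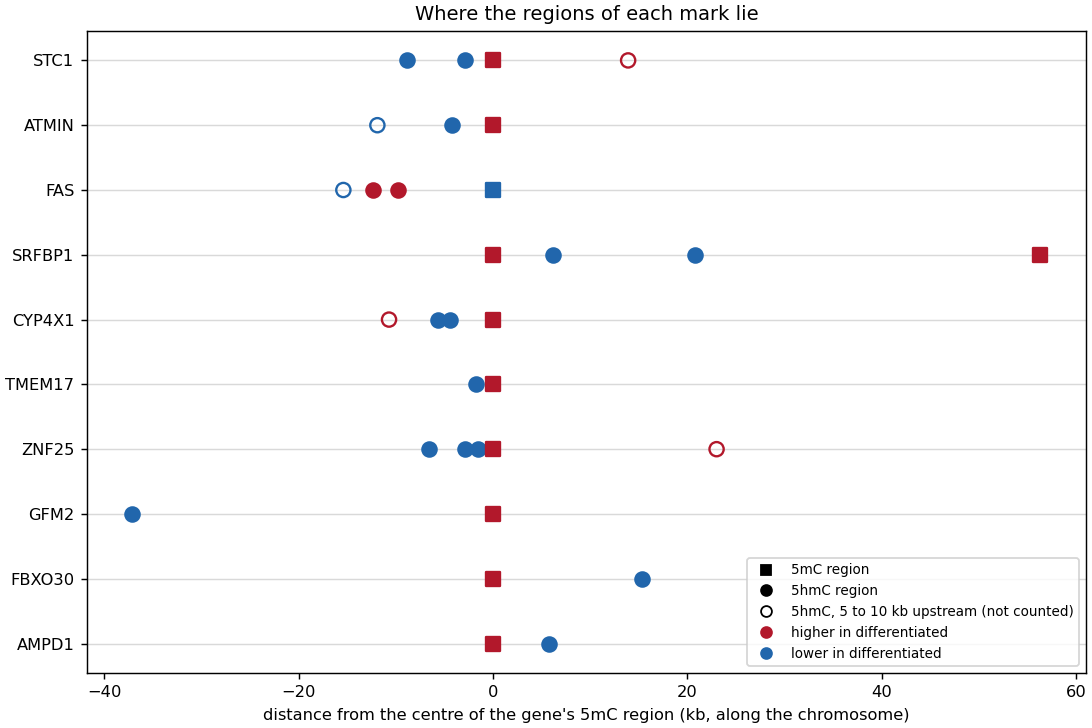
Position of each member's 5mC regions (squares) and 5hmC regions (circles) in kb from the centre of a 5mC region of the gene, red where higher and blue where lower in differentiated cells; open circles are 5hmC regions 5 to 10 kb upstream, which were not counted. Symbols mark region centres and are not drawn to width, so close symbols can touch. No 5mC region shares a base with a 5hmC region, and the closest pair, in ZNF25, is 800 bases apart.

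The gene starts of the members differed in CpG content, which is shown here because antibody capture of both marks depends on it. Promoter sequences from RefSeq (GRCh38.p14) were matched by symbol for 9 members. The 250 bases before the start are printed for 3 of them, chosen after their values were seen. TMEM17 has a region of each mark upstream of its start, the 5mC region of GFM2 reaches a start of the gene, and AMPD1 is shown as a CpG-poor start. The deposited regions are on hg19 and were not placed on these sequences. Capitals mark each CpG. TMEM17 lies at chr2:62506196-62506445, GFM2 at chr5:74767118-74767367 and AMPD1 at chr1:114695547-114695796, all on the minus strand.
TMEM17: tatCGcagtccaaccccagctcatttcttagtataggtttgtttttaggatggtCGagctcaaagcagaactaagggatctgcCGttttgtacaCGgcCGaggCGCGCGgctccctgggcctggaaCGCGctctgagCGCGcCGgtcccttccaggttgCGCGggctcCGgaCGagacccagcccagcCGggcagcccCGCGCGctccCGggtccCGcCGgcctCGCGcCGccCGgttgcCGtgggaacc
GFM2: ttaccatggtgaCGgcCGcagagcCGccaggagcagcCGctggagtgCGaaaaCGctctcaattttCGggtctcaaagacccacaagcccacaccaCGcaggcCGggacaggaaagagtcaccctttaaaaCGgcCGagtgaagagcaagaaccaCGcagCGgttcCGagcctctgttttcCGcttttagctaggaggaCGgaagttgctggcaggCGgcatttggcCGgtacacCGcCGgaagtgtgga
AMPD1: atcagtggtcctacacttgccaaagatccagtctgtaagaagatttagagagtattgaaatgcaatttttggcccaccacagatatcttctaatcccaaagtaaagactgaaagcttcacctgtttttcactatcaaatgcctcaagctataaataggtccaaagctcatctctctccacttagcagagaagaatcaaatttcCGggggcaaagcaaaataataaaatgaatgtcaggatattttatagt
The window of TMEM17 held 29 CpG (the letters CG, which read the same on both strands), and 14.1% of the 35116 promoters in the table held at least as many. GFM2 held 20 CpG, reached by 32.4% of promoters. AMPD1 held 1 CpG, and 93.9% of promoters held at least that many. The median promoter held 11. FBXO30 had 31 CpG and SRFBP1 17, while the alternative starts of ATMIN (22 and 2 CpG) and CYP4X1 (1 and 13) differed from each other. Of the 9 members with less 5hmC and more 5mC, all but STC1 had a promoter sequence, and these included CpG-rich and CpG-poor starts. The windows are not the captured regions, so a link between CpG content and the changes was not tested.

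Depth limits how finely these genes can be read. The 5hmC regions held 13010267 to 33693880 counts per library, and the listed 5mC regions held 6076100 to 9670011, which is a part of each 5mC library and not its depth. Summed over a member's regions, 6 to 221 reads per library were counted for 5hmC and 13 to 106 for 5mC. All values below are raw counts or CPM, with n = 3 libraries per state. CPM are counts per 1000000 reads counted in the regions of that mark, after TMM scaling. For 5mC this total covers only the listed regions, which are a selected list, and not the whole library. A log2 fold change above 0 means more signal in differentiated cells. Each standard error (SE) is the absolute log2 fold change divided by the square root of the F statistic of edgeR's quasi-likelihood test. That test was fitted over the whole table. Values of a gene come from the fit of gene sums, also where the gene has 1 region, and values given with an upstream distance or coordinates of 1 of several regions come from the separate fit of regions. The fits scale the libraries separately, so for a gene with 1 region they differ slightly: the 5mC of FAS was -0.71 (SE 0.218) as a gene and -0.77 (SE 0.218) as a region.

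At gene level the 3 libraries of each state stood apart from those of the other for every member in both marks. For 5hmC, 9 members were lower without overlap, where 29.5% of the 20404 genes tested were, and 1 was higher, where 27.5% were. For 5mC, 9 members were higher without overlap beside 39.0% of the 12637 genes tested, and 1 was lower beside 38.8%. The 9 genes with lower 5hmC all passed an adjusted p of 0.05, as did 25.8% of all genes in that direction, and FAS passed with the 25.7% that were higher. The single 5hmC region of FBXO30, with the same counts as its gene sum, did not pass in the separate fit of regions. For 5mC, all 9 passed with 41.0% of genes that were higher, and FAS with 43.2% that were lower. These counts follow from the way the members were chosen and carry no further evidence. The 5mC sums of all genes are built from regions listed for a difference between these libraries, so the 5mC shares describe a selected list.

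**Figure D2:**
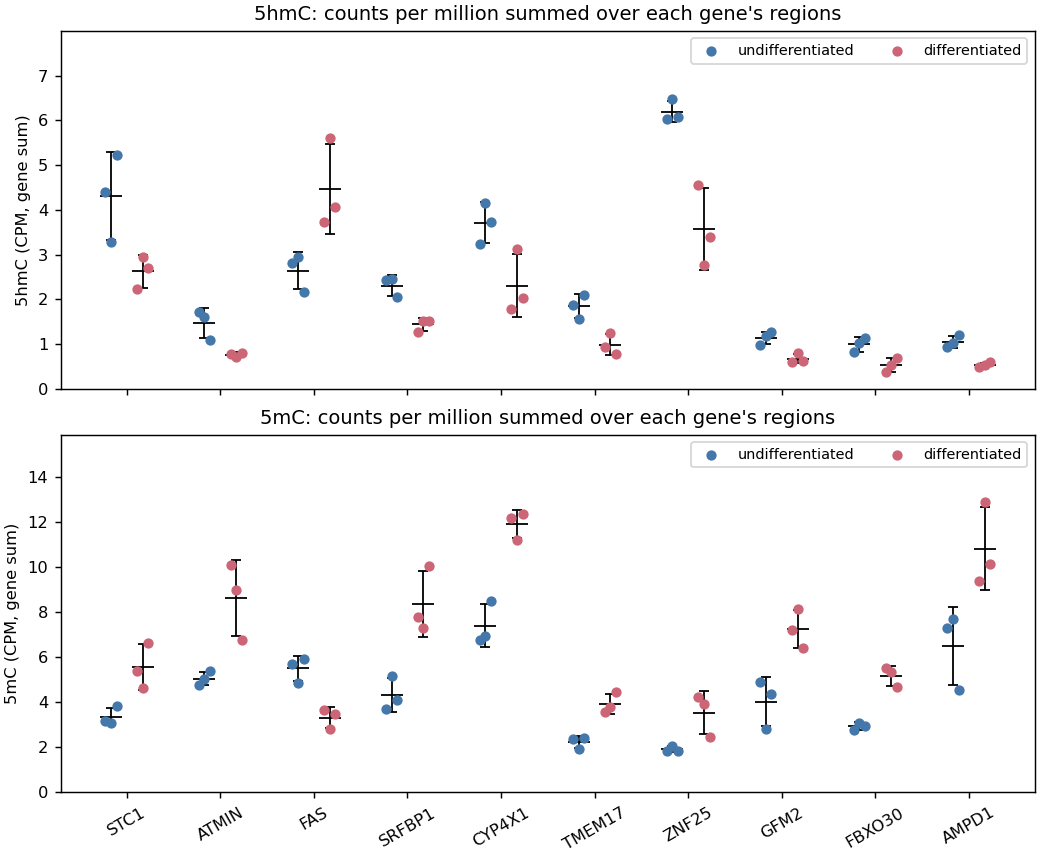
Captured 5hmC (top) and 5mC (bottom) in CPM summed over each gene's regions, with 1 point per library (blue undifferentiated, red differentiated) and bars for the mean and SD (n = 3). The points of the states are separate for every gene and mark, with 5hmC between 0.39 and 6.47 CPM and 5mC between 1.84 and 12.9 CPM.

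FAS encodes the death receptor CD95, which triggers apoptosis when it binds FAS ligand. It was the only member with more 5hmC and less 5mC after differentiation. Its 5hmC summed to 2.81, 2.94 and 2.168 CPM in undifferentiated replicates 1 to 3 and to 3.73, 5.62 and 4.05 CPM in differentiated replicates 1 to 3. Every differentiated library was above every undifferentiated one, with a log2 fold change of 0.67 (SE 0.172). The 5mC of FAS, from 1 region, was 5.69, 4.87 and 5.93 CPM in undifferentiated and 3.67, 2.80 and 3.50 CPM in differentiated libraries, a gene-level log2 fold change of -0.71 (SE 0.218).

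The FAS 5hmC signal came from upstream, and both of its regions also lie inside ACTA2, the neighbouring gene of smooth muscle actin. The region nearer to FAS (chromosome 10, 90748801 to 90749200, hg19, 1089 bases upstream) held 26, 10 and 10 reads in undifferentiated and 24, 17 and 53 in differentiated libraries, a log2 fold change of 1.31 (SE 0.275). A wider region 3489 bases upstream (90746201 to 90746800) had a log2 fold change of 0.44 (SE 0.195), and its libraries overlapped in CPM. The 5mC region lay inside FAS (90758601 to 90759000). The 2 upstream regions counted for both genes, and ACTA2 as a whole, with 5 5hmC regions, had a log2 fold change of 0.17 (SE 0.108). Just outside the 5 kb limit, a region 6689 bases upstream had a log2 fold change of -0.70 (SE 0.246), and all its differentiated libraries were below the undifferentiated ones. With a limit of 10 kb, chosen after seeing the data, the 5hmC value of FAS was 0.28.

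STC1 encodes stanniocalcin 1, a secreted glycoprotein that acts on calcium and phosphate balance. Its 5hmC was 4.40, 3.28 and 5.24 CPM in undifferentiated and 2.23, 2.94 and 2.71 CPM in differentiated libraries. The states were separate, with undifferentiated replicate 2 and differentiated replicate 2 the closest, and the log2 fold change was -0.71 (SE 0.180). Its single 5mC region held 24, 21 and 27 reads in undifferentiated and 47, 33 and 57 in differentiated libraries, and the gene-level log2 fold change was 0.73 (SE 0.219).

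All 3 STC1 regions lay in the gene body on chromosome 8 (hg19). The 5hmC regions at 23699801 to 23700200 and 23705801 to 23706200 had log2 fold changes of -0.82 (SE 0.201) and -0.44 (SE 0.270), and in each of them the libraries of the states overlapped. The 5mC region at 23708401 to 23709400 began 2200 bases beyond the nearer of them. STC1 is the member whose direction depended on the upstream limit. A 5hmC region 9881 bases upstream (23722201 to 23723400) held more reads in differentiated cells, with a log2 fold change of 0.66 (SE 0.162). Including it moved the gene value to 0.03. Within 20 kb of the 5mC region of STC1, 3 5hmC regions were lower and 3 were higher.

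ATMIN encodes a zinc finger protein that binds the DNA damage kinase ATM and activates transcription of DYNLL1. Its 5hmC value came from 1 region, with 63, 33 and 18 reads in undifferentiated and 14, 8 and 26 in differentiated libraries. In CPM these were 1.72, 1.62 and 1.08 against 0.78, 0.71 and 0.81, a gene-level log2 fold change of -0.97 (SE 0.242). The 5mC of ATMIN was 4.76, 5.02 and 5.37 CPM in undifferentiated and 10.1, 8.97 and 6.77 CPM in differentiated libraries. Differentiated replicate 1 was the highest and replicate 3 the lowest of that state, and the log2 fold change was 0.77 (SE 0.181).

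The 5hmC region of ATMIN (chromosome 16, 81067001 to 81067400) lay 2059 bases upstream of the gene and 292 bases from CENPN, which encodes a centromere protein. The 5mC region (81070801 to 81072000) lay inside ATMIN, 638 bases from a CpG island. CENPN itself, over 3 other 5hmC regions, had a log2 fold change of 0.43 (SE 0.147). A further region 9659 bases upstream of ATMIN had a value of -0.14 (SE 0.268), and counting it moved ATMIN to -0.57.

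SRFBP1 encodes a protein that binds serum response factor, a transcription factor of muscle and immediate early genes. It was the only member with more than 1 listed 5mC region and had the largest 5mC change of the 10, 0.97 on the log2 scale (SE 0.189). Its 5mC was 3.70, 5.17 and 4.10 CPM in undifferentiated and 7.79, 7.29 and 10.0 CPM in differentiated libraries. For 5hmC the values were 2.43, 2.45 and 2.05 CPM against 1.28, 1.52 and 1.53 CPM, a log2 fold change of -0.69 (SE 0.183).

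The 5hmC regions of SRFBP1 lay between its 5mC regions on chromosome 5. A 5mC region stood 1057 bases upstream (121296201 to 121296600), with 13, 18 and 18 reads in undifferentiated and 30, 35 and 51 in differentiated libraries. The 5hmC regions followed inside the gene at 121302401 to 121302800 (log2 fold change -1.07, SE 0.322) and at 121317001 to 121317400 (-0.39, SE 0.272). The second 5mC region, at 121352401 to 121353000, was a further 35000 bases away. Its libraries overlapped, because undifferentiated replicate 2 (2.55 CPM) was above differentiated replicate 2 (2.34 CPM).

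ZNF25 encodes a zinc finger protein of the KRAB family, whose members mostly bind DNA and repress transcription. It had the most 5hmC regions of the 10 genes, 3 in the gene body on chromosome 10, and all were lower in differentiated cells. Their log2 fold changes were -0.59 (SE 0.271) at 38245601 to 38246000, -0.84 (SE 0.214) at 38249201 to 38249800 and -0.75 (SE 0.214) at 38250601 to 38251200. Summed, ZNF25 had 6.03, 6.47 and 6.08 CPM in undifferentiated and 4.57, 2.76 and 3.40 CPM in differentiated libraries.

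The 5mC region of ZNF25 (38252001 to 38252800) followed 800 bases after the last of these 5hmC regions, the shortest gap among the members. It held few reads, 14, 14 and 13 in undifferentiated and 37, 28 and 21 in differentiated libraries, and the gene-level log2 fold change was 0.87 (SE 0.278). All 4 5hmC regions within 20 kb of it were lower. Outside that flank, a region 9748 bases upstream of the gene had a value of 1.09 (SE 0.263), and its libraries did not overlap. Counting it moved the 5hmC value of ZNF25 from -0.77 (SE 0.146) to -0.38.

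TMEM17 encodes a membrane protein of the ciliary transition zone, the gate at the base of the cilium. It had the largest 5hmC change of the members, -0.998 (SE 0.228), from 1.88, 1.57 and 2.107 CPM in undifferentiated to 0.95, 1.25 and 0.78 CPM in differentiated libraries. Its 5mC was 2.38, 1.92 and 2.40 CPM against 3.55, 3.78 and 4.43 CPM, a log2 fold change of 0.80 (SE 0.258). Both regions lay upstream of the gene by the deposited distances, and they were not placed on the sequence printed above. The 5hmC region (chromosome 2, 62734201 to 62734600) was 597 bases upstream, and the 5mC region (62736001 to 62736400) was 2397 bases upstream. Each was 400 bases wide, and 1400 bases lay between them.

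GFM2 encodes a mitochondrial elongation factor that recycles ribosomes after translation. Its marks lay farther apart than those of any other member. The 5mC region (chromosome 5, 74061201 to 74062200) reached a start of the gene and was 368 bases from a CpG island, the closest of the 27 regions to an island. The 5hmC region (74024401 to 74024800) was 36400 bases away inside the gene. The nearest 5hmC region of any gene was 18000 bases away at FAM169A, with a log2 fold change of -0.71 (SE 0.241). GFM2 5mC was 4.89, 2.81 and 4.38 CPM in undifferentiated and 7.22, 8.13 and 6.42 CPM in differentiated libraries, a log2 fold change of 0.83 (SE 0.200). Undifferentiated replicate 2 was the lowest. The 5hmC region held 36, 24 and 21 reads against 11, 9 and 20, and the gene-level log2 fold change was -0.75 (SE 0.248).

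FBXO30 encodes an F-box protein, the part of an SCF ubiquitin ligase that picks the substrate. A single region gave its 5hmC value, with 30, 21 and 19 reads in undifferentiated and 7, 6 and 22 in differentiated libraries. Scaled to CPM, these were 0.82, 1.03 and 1.14 against 0.39, 0.53 and 0.69, a gene-level log2 fold change of -0.75 (SE 0.283), the widest error among the members. Without differentiated replicate 3 the value was -1.09, and without differentiated replicate 1 it was -0.57. The 5mC region held 21 reads in every undifferentiated library and 48, 38 and 40 in differentiated ones, and the gene-level log2 fold change was 0.81 (SE 0.228).

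Neither FBXO30 region belongs to that gene alone. The 5hmC region (chromosome 6, 146137601 to 146138000, 1680 bases upstream) and the 5mC region (146122201 to 146122800, in the gene body) both also lie inside LOC100507557, an uncharacterised locus. Over its 14 5hmC regions LOC100507557 had a log2 fold change of -0.07 (SE 0.0637), and over its 3 5mC regions one of 0.34 (SE 0.141).

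AMPD1 encodes the muscle form of AMP deaminase, which converts AMP to IMP. Its 5hmC region lay 2362 bases upstream of the gene by the deposited distance (chromosome 1, 115240601 to 115241000). The gene had 0.93, 1.03 and 1.20 CPM in undifferentiated and 0.50, 0.53 and 0.59 CPM in differentiated libraries. The differentiated libraries were closely grouped, and the gene-level log2 fold change was -0.88 (SE 0.256) on 34, 21 and 20 against 9, 6 and 19 reads. The 5mC region inside the gene (115234201 to 115235800) was the widest of the members at 1600 bases. The 5mC of the gene was 7.27, 7.68 and 4.52 CPM against 9.40, 12.9 and 10.1 CPM, a gene-level log2 fold change of 0.72 (SE 0.164).

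CYP4X1 encodes a cytochrome P450 of the CYP4 family of fatty acid hydroxylases. Its 5mC region (chromosome 1, 47492201 to 47492800, in the gene body) held 51, 47 and 60 reads in undifferentiated and 106, 80 and 106 in differentiated libraries, and the gene-level log2 fold change of 0.69 (SE 0.148) had the smallest error among the 5mC values. Both 5hmC regions were upstream, at 2241 bases (47486601 to 47487000; log2 fold change -0.89, SE 0.258) and at 841 bases (47487801 to 47488400; -0.58, SE 0.232). Summed, CYP4X1 had 3.25, 4.17 and 3.73 CPM in undifferentiated and 1.78, 3.12 and 2.03 CPM in differentiated libraries, a log2 fold change of -0.74 (SE 0.190). Differentiated replicate 2 was just below undifferentiated replicate 1. A region 7041 bases upstream had a value of 0.52 (SE 0.276), and counting it moved CYP4X1 to -0.38.

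**Figure D3:**
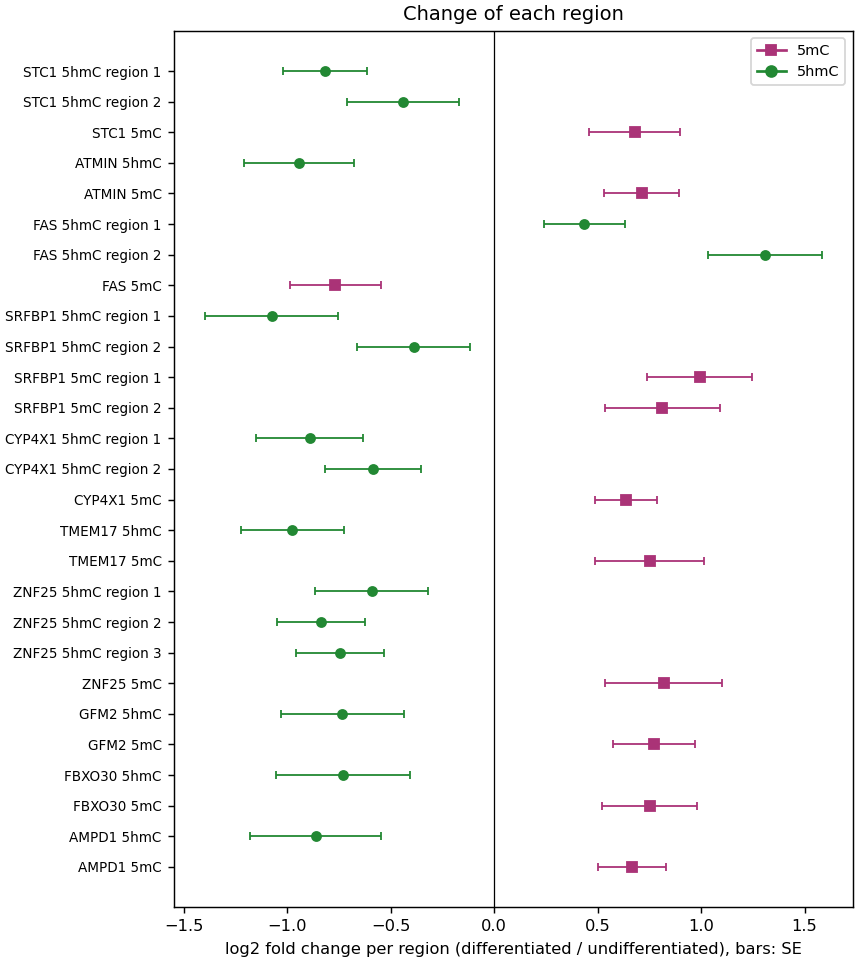
Log2 fold change of each of the 27 member regions with its SE, from the fit of regions, squares for 5mC and circles for 5hmC. Within each gene all regions of a mark are on the same side of 0, with 14 of 16 5hmC regions below 0 and 10 of 11 5mC regions above it.

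The levels per kb of region are given as a description, since scaling by width corrects neither CpG density nor copy number. For 5mC in undifferentiated cells they ranged from 2.40 CPM per kb in ZNF25 to 13.8 in FAS. In differentiated cells the range was from 4.42 CPM per kb in ZNF25 to 19.8 in CYP4X1. The 5hmC levels in undifferentiated cells ranged from 2.49 CPM per kb in FBXO30 to 5.38 in STC1. In differentiated cells it ran from 1.34 CPM per kb in FBXO30 to 4.47 in FAS.

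Single regions gave a mixed picture of separation. Among the 16 5hmC regions, 9 were lower without overlap of the libraries, where 25.9% of the 327901 regions tested were, and 1 (FAS) was higher, where 26.2% were. An adjusted p under 0.05 was reached by 10 of the 14 lower regions (23.3% of all regions) and by 1 of the 2 higher ones (27.0%). Among the 11 5mC regions, 9 were higher without overlap (43.1% of the 65534 tested) and 1 was lower (43.0%), and all 11 passed, 10 as higher (35.7%) and 1 as lower (37.0%). The members were chosen on these same differences, so the counts of their regions in either mark carry no further evidence. The 5mC shares describe a list already selected for differences.

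The member regions are described here by width, place and number, and these features were not shown to be independent of the selection. Of the 16 5hmC regions, 12 were 400 bases wide, and the 5mC regions had a median of 600 bases, beside medians of 600 and 800 over the regions of all genes. Of the 5hmC regions 8 lay in gene bodies and 8 upstream, and of the 11 5mC regions 9 lay in gene bodies. Over all genes, 89.4% of 5hmC regions and 90.0% of 5mC regions assigned to a gene lay in its body. None of the member regions lay in a CpG island. Within 2 kb of an island were 4 of the 16 5hmC regions, beside 8.66% of the 5hmC regions of any gene, and 3 of the 11 5mC regions, beside 7.72%. The members had medians of 1.5 5hmC and 1 5mC region, where all tested genes had medians of 5 and 2. The 870 other genes with opposite calls had medians of 7 and 1.

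Opposite directions were uncommon where the marks did overlap. Of the listed 5mC regions, 67.8% overlapped a 5hmC region, and none of the members' 5mC regions did. Of the 5hmC regions, 14.3% overlapped a listed 5mC region, and none of the members' 5hmC regions did. In the 47289 overlapping pairs of the tables, 8.08% had opposite signs, and of the 22368 pairs past the threshold in both marks, 1.83% (410) did. Across these pairs, which come from the same DNA preparations and from a selected 5mC list, Pearson's r of the log2 fold changes was 0.78, given as a description because pairs are not independent. Of 5870 genes past an adjusted p of 0.05 in both marks, 880 (15%) had opposite signs, 469 with more 5mC and less 5hmC and 411 with the reverse. Among the 870 of them that are not members, 65.1% had an overlapping pair of regions, but only 21.7% had an overlapping pair with opposite signs, and 34.9% had none. All 10 members belong with the genes that had no overlapping pair.

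**Figure D4:**
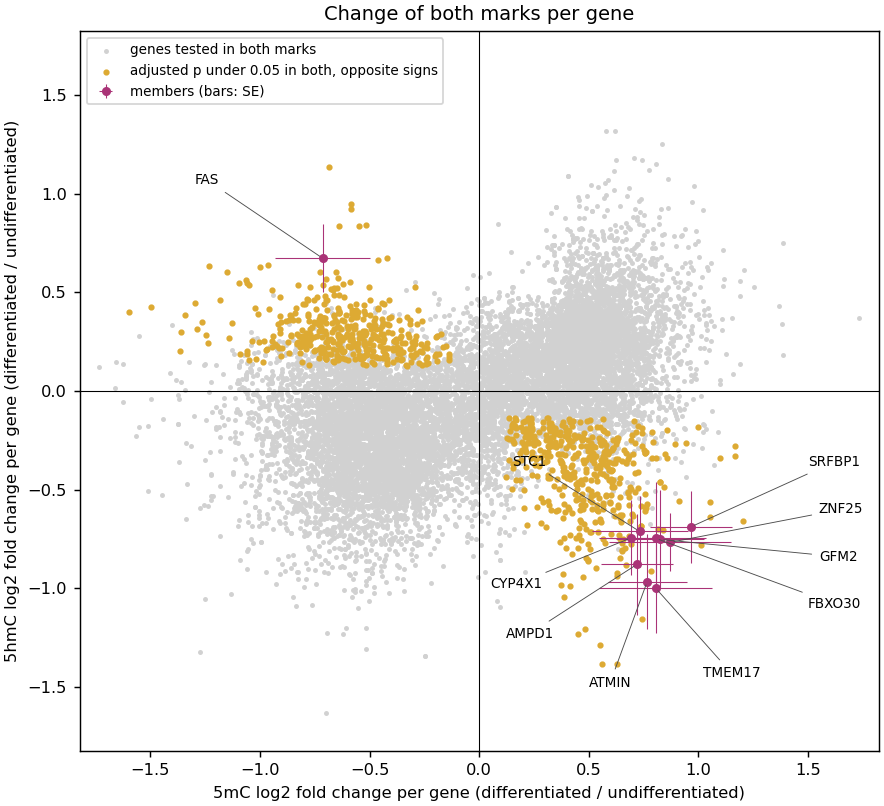
Log2 fold change of 5hmC against that of 5mC for the 12329 genes tested in both marks (grey), the genes past the threshold in both with opposite signs (yellow) and the 10 members (purple, bars SE). Of the members, 9 lie at the lower right and FAS at the upper left.

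The members rank 1 to 20 among these 880 genes by the smaller of their 2 absolute log2 fold changes. By the same measure, the non-members most like them with more 5mC and less 5hmC were HIST1H4C, which encodes a histone H4 (5mC 0.78, SE 0.278; 5hmC -0.91, SE 0.226), LOC100507066 (1.01, SE 0.287; -0.78, SE 0.115) and FBXO39, an F-box gene (0.74, SE 0.271; -1.16, SE 0.336). With the directions of FAS they were LOC100507254 (5mC -0.68, SE 0.261; 5hmC 1.14, SE 0.153), BTK, which encodes a tyrosine kinase of B cells and myeloid cells (-0.64, SE 0.238; 0.84, SE 0.173), and SPG20OS (-0.96, SE 0.260; 0.64, SE 0.229). None of the 6 had an overlapping pair either, and they had 1 to 4 5hmC regions and 1 5mC region each. In all of them except LOC100507066, the call in 1 or both marks was lost when a library was left out or the scaling or test was changed.

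Genes that work with the members or are related to them were examined in 10 lists of 128 genes, which were written with earlier results known. The CYP4 list holds family relatives of CYP4X1, and the zinc finger list holds genes listed as near ZNF25. For 5hmC, 120 were tested, 26 (21.7%) were higher and 50 (41.7%) lower in differentiated cells at an adjusted p of 0.05, beside 25.7% and 25.8% of all genes. For 5mC, 84 were tested, with 28 higher (33.3%) and 42 lower (50.0%), beside 41.0% and 43.2%. Without TMM, 6 were higher and 69 lower for 5hmC and 11 and 52 for 5mC, with the median of all genes at -0.19 and -0.31. The 5mC sums of these genes are built from regions listed for a difference between the same libraries, so their 5mC calls carry that selection. The genes named below were picked by smallest p-value, and the largest adjusted p among their 5hmC values by edgeR's quasi-likelihood test was 0.015 (ZNF248).

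In the death receptor pathway of FAS, 3 of 20 genes were higher and 7 lower for 5hmC, which became 0 and 14 without TMM and 1 and 4 with DESeq2. For 5mC, 3 of 12 were higher and 7 lower, which became 1 and 8 without TMM and 3 and 3 with DESeq2. CFLAR, an inhibitor of caspase activation at the receptor, had less 5mC (-0.47 on the log2 scale, SE 0.0875). FAIM, an inhibitor of FAS signalling, and TNFRSF10D, a decoy receptor, had less 5hmC (-0.54 and -0.54). In the ATM pathway, which holds the kinase partner of ATMIN, 8 of 14 genes had less 5hmC and 0 had more (9 and 0 without TMM). Lower values were found for RAD50 (-0.62, SE 0.0962), RNF168 (-0.52, SE 0.0763) and BRCA1 (-0.32, SE 0.0533), which act in the signalling and repair of DNA breaks. For 5mC, 3 of 11 genes in this pathway were higher and 5 lower (0 and 8 without TMM). BRCA1 also had less 5mC (-0.44, SE 0.0565), as did TP53BP1 (-0.49, SE 0.0798).

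Among the mitochondrial translation factors listed for GFM2, 5 of 10 had less 5hmC and 1 had more (7 and 1 without TMM). GFM1, its elongation factor paralog, had less 5hmC (-0.76, SE 0.115), as did MTIF2 (-0.56, SE 0.0714) and MTRF1 (-0.44, SE 0.0759). For 5mC, 3 of 7 of these factors were higher and 4 lower (1 and 4 without TMM). MTRF1 had less 5mC as well (-0.70, SE 0.130), while MRRF, a ribosome recycling factor, had more (0.82, SE 0.159). In the purine list of AMPD1, 3 of 18 were higher and 7 lower for 5hmC (0 and 12 without TMM), with ADSL at -0.36 (SE 0.0627) and NT5C2 at -0.32 (SE 0.0574). For 5mC in this list 3 of 12 were higher, AK3 among them (0.51, SE 0.0745), and 5 lower, among them the adenosine kinase gene ADK (-0.49, SE 0.0466), and without TMM 1 was higher and 8 lower.

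The CYP4 relatives of CYP4X1 went the other way in 5hmC. Of 11 tested, 7 were higher and 0 lower, with CYP4F2 at 0.51 (SE 0.0665), CYP4V2 at 0.62 (SE 0.0935) and CYP4F3 at 0.39 (SE 0.0702), although without TMM 2 were higher and 1 lower and the CYP4F3 call was lost. For 5mC, 3 of 6 were higher, CYP4F11 among them (0.87, SE 0.0653), and 2 lower (2 and 2 without TMM), CYP4F22 among them (-0.67, SE 0.111). Genes of this family lie in clusters of similar sequence, where reads can be split between copies. In the list of STC1, 4 of 8 genes had more 5hmC and 0 had less, a count that was 3 and 0 without TMM. They included PAPPA (0.65, SE 0.0543) and PAPPA2 (0.44, SE 0.05), proteases of insulin-like growth factor binding proteins, and STC2 (0.61, SE 0.118), the paralog of STC1. For 5mC, 3 of 7 genes in this list were higher and 2 lower, which became 2 and 3 without TMM. Those with more 5mC included PAPPA (0.80, SE 0.118) and the receptor gene IGF1R (0.50, SE 0.0487).

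The transition zone genes listed for TMEM17 had less 5hmC in 8 of 14 and more in 1 (9 and 0 without TMM). TMEM107 (-0.90, SE 0.137), TCTN3 (-0.57, SE 0.1002) and TCTN2 (-0.48, SE 0.0591) were lower. For 5mC, 7 of 11 were lower, AHI1 among them (-0.41, SE 0.0673), and 3 higher (8 and 1 without TMM), with MKS1 at 0.91 (SE 0.211). Of the SCF genes listed for FBXO30, 9 of 13 had less 5hmC, including FBXO40 (-0.52, SE 0.0800), RBX1 (-0.39, SE 0.0598) and NEDD8 (-0.62, SE 0.112), and 3 had more (10 and 0 without TMM). In 5mC 6 of 10 were lower, with FBXW11 at -0.66 (SE 0.102) and FBXO40 at -0.50 (SE 0.0882), and 4 were higher (6 and 1 without TMM).

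For SRFBP1, 3 of 7 SRF genes had more and 3 had less 5hmC. The number with more was 1 with DESeq2, with the replicate block and without differentiated replicate 3, and 0 without TMM and without undifferentiated or differentiated replicate 1. MKL1, an SRF coactivator, had less 5hmC (-0.38, SE 0.0502) and less 5mC (-0.59, SE 0.0443), ELK4 had less 5hmC (-0.40, SE 0.101), and ELK3 had more 5mC (0.52, SE 0.0956). MYOCD had more 5hmC (0.31, SE 0.0919), a call lost without TMM and without undifferentiated or differentiated replicate 1. Of the zinc finger genes listed for ZNF25, 3 of 5 had less 5hmC and 1 had more (4 and 0 without TMM, 2 and 0 with DESeq2). Those with less were ZNF33B (-0.47, SE 0.0790), ZNF37A (-0.48, SE 0.0920) and ZNF248 (-0.21, SE 0.0652). ZNF248 was not called with DESeq2 or without undifferentiated replicate 1 or 2 or differentiated replicate 1. For 5mC, 1 of 3 in this list was higher and 2 were lower. ZNF33B had less 5mC (-0.82, SE 0.234) and ZNF248 had more (0.58, SE 0.117), so ZNF248 combined lower 5hmC with higher 5mC as ZNF25 did.

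**Figure D5:**
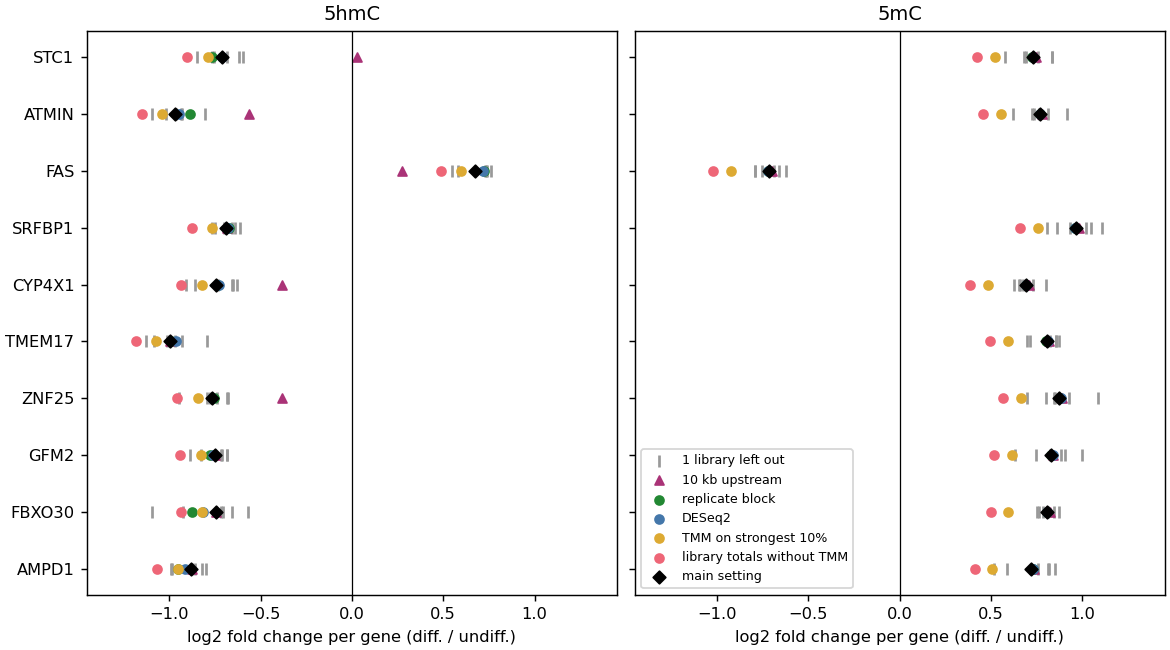
Log2 fold change of each member for 5hmC (left) and 5mC (right) under the main setting (black diamonds), other scalings and tests, a replicate block, a 10 kb upstream limit and with 1 library left out (grey ticks). Every value plotted stays on its side of 0 except 5hmC of STC1 with the 10 kb limit (0.03).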

How the data were processed

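Captured 5mC and 5hmC DNA was measured in 12 libraries of HL-60 cells, 3 per state and mark. The submitters' processing notes list the build GRCh37 (hg19) and 5 tools with no stated role, namely SICER 1.1, edgeR 2.11, BWA, bedtools 2.17.0 and SAMtools 0.1.18. For each mark the authors deposited a table of regions, on a 200-base grid, with raw read counts per library. They also deposited log2 fold changes, log2 mean CPM values and p-values, which were not used for the results. The 5mC table is a selected list: the largest p-value in the authors' deposited table is 0.0165, which with its adjusted value of 0.0826 implies 328588 tests. Its p-values per region were therefore adjusted over that number. The list holds 65535 regions, and the reason why it ends there is not stated. Of the 5hmC regions, 18 with a blank count were left out, none of a member. No input library was analysed here.

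Counts per region, and their sums per gene (body and 5000 bases upstream; regions near several genes entered each sum), were fitted with edgeR 4.0.16 (quasi-likelihood F test, filterByExpr, TMM, Benjamini-Hochberg adjustment, threshold 0.05), limma 3.58.1, DESeq2 1.42.0 and data.table (1.17.8) in R 4.3.3. Gene sums were scaled by the totals of the whole table. The states were compared within each mark, with n = 3 per state. All 10 members passed the filter in both marks, and so did all 27 of their regions. Overlap (bedtools 2.31.1) meant at least 1 shared base, and gaps were counted between region edges written 1-based. The deposited promoter distance was read as upstream only. Regions were not told apart as exonic or intronic because no annotation of hg19 was used here. The fits were tested on simulated data. The members and the lists were chosen with earlier results of these data known. By rule, all members are named, with up to 3 genes per list for 5hmC and 2 for 5mC by smallest p-value, and the 3 most alike genes per direction; some picked genes are not reported here. Alternatives were other scalings, DESeq2, no filter, a replicate block, each library left out, other gene windows and a stricter overlap.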

Additional observations from a re-analysis of the deposited data

How the results depend on the processing

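Of 259 alternative values for the members, 239 moved by less than 1 SD of the replicates, 19 moved by more and 1 changed sign (STC1 5hmC, 0.027 with the 10 kb limit chosen after seeing the data). Part of the 239 could hardly move. Leaving out the filter kept the same reads of every member, as did another window where a member gained or lost no region. Without TMM the 5mC values of the members with more 5mC were smaller, such as 0.38 for CYP4X1, 0.41 for AMPD1 and 0.42 for STC1, and FAS was at -1.02. In every setting with the 5 kb limit, 9 members had lower 5hmC, 9 had higher 5mC and 10 had opposite signs, and with the 10 kb limit 8 had lower 5hmC and 9 opposite signs. Gene bodies alone gave a 5hmC value for 4 members, all 4 lower, and opposite signs in 4. Starts within 2 kb alone gave a 5hmC value for 4 members, 3 of them lower, and a 5mC value for 2, both higher. Regions overlapping the other mark gave no value, since no member has one. The share of opposite overlapping pairs (8.08%) was 7.91% to 10.0% over all settings, 9.18% to 9.85% when a replicate number was left out of both states.

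Counts over the whole tables depended on the scaling. Without TMM, 5hmC genes went from 5251 higher and 5272 lower to 1591 and 8545, and 5mC genes from 5184 higher and 5461 lower to 1405 and 6835. With TMM on the strongest 10% of genes, 2769 5mC genes were higher and 6349 lower. For 5hmC regions, 88586 higher and 76303 lower became 46023 and 118331 without TMM, 34487 and 133561 with TMM on the strongest 10%, and 43228 and 23256 with DESeq2. For 5mC regions, 23381 higher became 2494, 1731 and 1954 under these settings in turn, and 24269 lower became 32689, 32690 and 1454. The median log2 fold change of all 5mC regions was 0.221 in the main setting and -0.035, -0.072 and 0.218 in these. Leaving out 1 library gave 56965 to 90315 higher and 43359 to 78411 lower 5hmC regions, the lowest without undifferentiated replicate 1 and without differentiated replicate 3, and 14141 to 15162 higher and 14939 to 15539 lower 5mC regions. List genes with higher 5hmC went from 26 to 6 without TMM, 17 with TMM on the strongest 10% and 17 with DESeq2, and to 17 to 28 with 1 library left out, the lowest without differentiated replicate 1. List genes with higher 5mC went from 28 to 11 without TMM and 13 with TMM on the strongest 10%. Without differentiated replicate 2, which held the fewest 5hmC counts, more 5hmC regions were called than with all libraries (90315 higher and 78411 lower). The causes of these shifts were not tested.

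Replicate numbers did not pair the samples: deviations of same-numbered libraries correlated at 0.001, -0.185 and -0.212 for 5hmC genes and at 0.014, -0.005 and -0.01 for 5mC genes. With the replicate block, 4333 5hmC genes were higher and 4512 lower, 5186 5mC genes were higher and 5459 lower, and 10 members had opposite signs. For members with under 30 reads per library, differences smaller than their SE allows were not detectable at this depth. No group had more than 3 libraries, so single libraries could not be tested as outliers.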
